A study of Mus musculus with 12 samples.

Results

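Methylation was described at 4 genes of the imprinted cluster on mouse chromosome 7 that corresponds to the human Prader-Willi and Angelman region, namely Snrpn, Ndn, Magel2 and Ube3a. They were found by their Ensembl gene identifiers in the deposited levels, which carry 1 value per gene for each of 5 gene parts (promoter, 5' UTR, exons, introns and 3' UTR), and make up 4 of the 30073 genes with a level. Of the 20 gene parts these 4 genes could have, 11 had a level, and all 11 had one in all 12 libraries. Snrpn had 4 (promoter, 5' UTR, exons and introns), Ube3a the same 4, Magel2 had exons and 5' UTR, and Ndn had exons alone.

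The levels come from reduced representation bisulfite sequencing (RRBS), in which genomic DNA is cut at CCGG by the enzyme MspI, so that reads start at CCGG and cover CpG-rich fragments, and in which bisulfite converts unmethylated cytosine. The 12 libraries form 6 groups of 2, all labelled C57BL6. The groups were female embryonic stem cells (ESC), parthenogenetic embryonic stem cells (pESC, from oocytes activated without sperm, so that both genome copies are maternal), primordial germ cells of female embryos at embryonic day 9.5 (E9.5 PGC) and 12.5 (E12.5 PGC), and PGC-like cells induced in culture from either stem cell (ESC-PGCLC and pESC-PGCLC). According to the study's methods, the stem cells carried an actin-GFP transgene, PGCs were isolated by the surface markers SSEA1 and CD61 or by SSEA1 alone, and PGCLCs were made through an epiblast-like stage with Activin A and bFGF, followed by BMP4, SCF, EGF and LIF, and sorted as SSEA1 and CD61 positive. The study calls the libraries of a group biological replicates, and neither it nor the labels say whether they came from separate lines, cultures or embryos, so p-values measure the spread between these libraries. Each group of cultured cells may rest on 1 cell line.

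In this cluster, the copy inherited from the mother is methylated in the oocyte at the start region of Snrpn, the imprinting centre, and the copy inherited from the father is not. Snrpn (a component of the splicing machinery), Ndn (necdin, a growth-suppressing protein of neurons) and Magel2 (a regulator of ubiquitin ligases in endosomal protein sorting) are expressed from the paternal copy. Ube3a, a ubiquitin ligase, is expressed from the maternal copy in neurons, where a long paternal transcript through Snrpn runs antisense to it. Germ cells erase parental imprints before they set new ones.

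The annotation places Ube3a at bases 59228750 to 59311536 of chromosome 7 on the plus strand, Snrpn at 59982495 to 60140219 on the minus strand, Ndn at 62346569 to 62350262 and Magel2 at 62377010 to 62381640, both on the plus strand (GENCODE M21, GRCm38). Snrpn has 2 annotated starts 135108 bases apart, an inner one at 60005111 and an outer one at 60140219. Within 2000 bases on either side, the inner start has 70 CpGs and 5 MspI sites, while the outer start has 17 CpGs and no MspI site, the nearest being 3696 bases away. The authors' promoter definition is not given in the sources used here. The same window held 156 CpGs and 11 MspI sites at Ube3a, 95 and 12 at Magel2, and 44 and 1 at Ndn. At Ndn the window, taken from the GENCODE start, cuts through the CpG island at 62348254 to 62348744, which holds 41 CpGs and 2 MspI sites. The low Ndn counts thus depend on the start chosen.

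**Figure D1:**
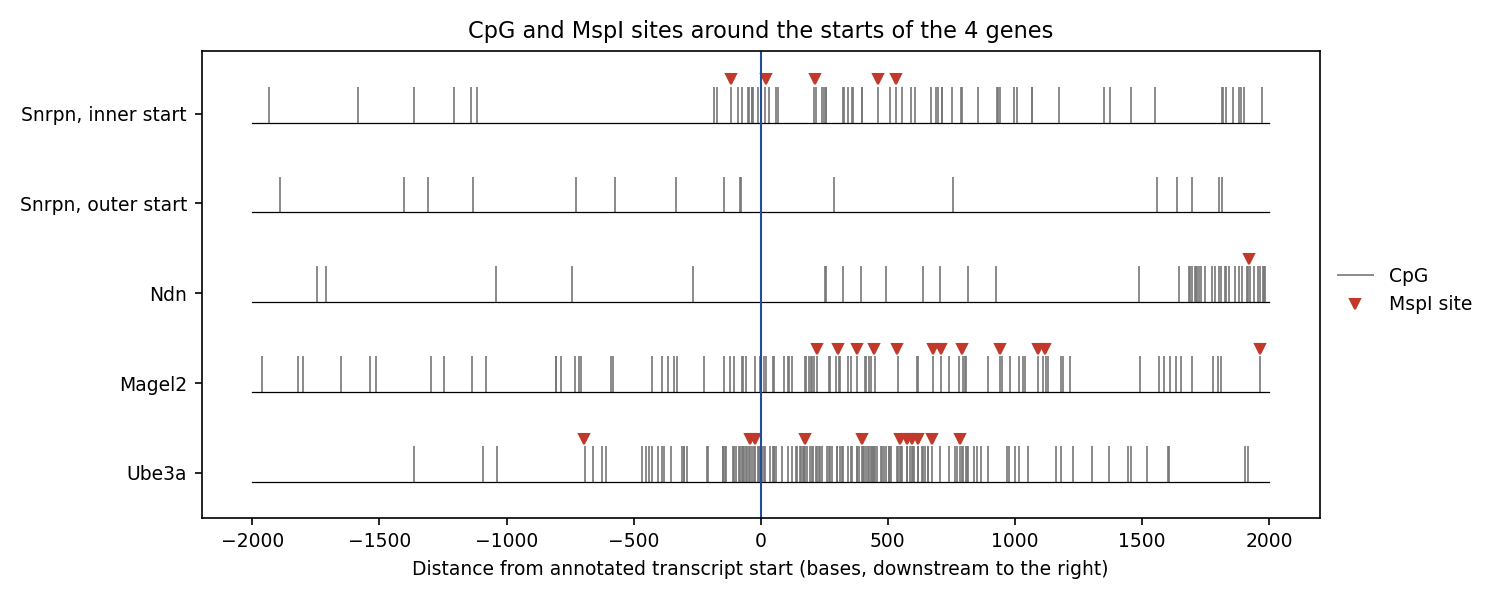
CpGs (grey lines) and MspI sites (red triangles) by distance in bases from the annotated transcript start, for the inner and outer start of Snrpn and for Ndn, Magel2 and Ube3a. The outer Snrpn start has no MspI site within 2000 bases, and the 5 sites of the inner start lie between positions -116 and 532 relative to it. The Ndn start shown is that of GENCODE, which lies upstream of its CpG island, so the island is cut off at the right edge.

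The sequences show what DNA lies upstream of these starts and how unevenly CpGs are spread over it, which sets what RRBS can read. Each is the 250 bases upstream of a RefSeq start, 5′ to 3′ on the gene's strand, with every CpG in capitals (GRCm38.p6), and 7 such windows matched the 4 genes. The RefSeq starts differ from the GENCODE starts given above.
Snrpn inner, chr7:60005200-60005449, minus strand: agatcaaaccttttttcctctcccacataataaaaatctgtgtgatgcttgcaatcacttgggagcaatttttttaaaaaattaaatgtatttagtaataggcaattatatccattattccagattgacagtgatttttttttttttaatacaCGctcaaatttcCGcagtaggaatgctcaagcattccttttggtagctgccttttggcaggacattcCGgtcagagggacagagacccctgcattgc
Snrpn outer, chr7:60140226-60140475, minus strand: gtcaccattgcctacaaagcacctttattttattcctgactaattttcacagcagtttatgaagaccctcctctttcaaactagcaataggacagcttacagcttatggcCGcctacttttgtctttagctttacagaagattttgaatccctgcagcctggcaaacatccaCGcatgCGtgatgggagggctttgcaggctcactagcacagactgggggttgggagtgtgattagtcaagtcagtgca
Ndn, chr7:62348027-62348276, plus strand: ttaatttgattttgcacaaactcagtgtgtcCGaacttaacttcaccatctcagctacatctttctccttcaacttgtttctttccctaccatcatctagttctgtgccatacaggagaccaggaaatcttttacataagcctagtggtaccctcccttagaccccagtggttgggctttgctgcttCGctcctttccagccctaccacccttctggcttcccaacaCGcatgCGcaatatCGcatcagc
Ube3a, chr7:59228500-59228749, plus strand: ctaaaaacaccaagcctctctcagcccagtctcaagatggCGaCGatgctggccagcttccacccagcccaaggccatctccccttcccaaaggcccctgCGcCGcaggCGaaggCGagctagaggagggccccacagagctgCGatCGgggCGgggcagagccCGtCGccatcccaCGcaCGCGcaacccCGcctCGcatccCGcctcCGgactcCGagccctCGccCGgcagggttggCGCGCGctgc

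Both printed Snrpn windows hold 3 CpGs and the Ndn window 5, against 24 at Ube3a and a median of 6 over 32851 windows of all genes. CCGG occurs once in the inner Snrpn window and not in the outer one, and is found in 47.1% of all windows. The letters CGCATGCG, a core of the motif of the transcription factor NRF1, occur in 4 of the 7 windows and in 1.55% of all windows. They occur at Ndn and otherwise only in windows of Snrpn, among them that of the outer start but not the inner one. The Snrpn windows with these letters share a nearly identical stretch of sequence around them. They are thus not independent of each other, and the count of 4 in 7 cannot be read as an enrichment. No window of the 4 genes holds TGCCGC or its reverse complement GCGGCA, the motif of the imprint-protecting factor ZFP57, which 8.68% of all windows hold, and this says only that the letters are not in these 250 bases. At the inner Snrpn start the MspI sites bound 4 fragments of 70, 250, 192 and 136 bases, with 2, 13, 4 and 10 CpGs. Of the 47 MspI sites in the Snrpn gene only 2 are in exons, and 1 of them, at 60005091, lies 20 bases downstream of the inner start, in the first exon of that transcript, which is all 5' UTR.

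Magel2 differs from the other genes in holding an array of MspI sites within its single exon. From 2017 bases after its start, 12 sites lie 18 or 36 bases apart (8 gaps of 18 and 3 of 36). The first 90 bases of this run (GRCm38, plus strand) are printed with each CCGG in capitals, as an example of the repeated sequence within the exon. Whether reads from this run entered the exon level cannot be read from the levels, which come without positions.
Magel2 run, chr7:62379027-62379116, plus strand: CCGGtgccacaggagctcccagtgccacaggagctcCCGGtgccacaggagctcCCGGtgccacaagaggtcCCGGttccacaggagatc

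Over all features, the libraries differed in overall methylation, which bears on each comparison below. The mean level over the 133311 features with a value in all 12 libraries was 23.6% in ESC, 23.6% in pESC, 36.4% in E9.5 PGC, 24.3% in E12.5 PGC, 29.5% in ESC-PGCLC and 27.4% in pESC-PGCLC (means of 2 libraries). Between 144375 and 166476 features had a level in a library. The depth behind the levels is unknown, as they come without read counts. The 2 ESC libraries were the least alike, with a mean absolute difference of 6.16 points, against 2.19 to 3.29 points within the other groups, and their overall means were 25.9% and 21.3%.

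The Snrpn promoter was the most methylated of the 11 gene parts in 10 of 12 libraries. The exceptions were ESC replicate 1, where the Magel2 exon was higher, and ESC-PGCLC replicate 1, where the Snrpn exons and 5' UTR were. The Snrpn promoter level was 34.5% and 44.8% in ESC, 82.8% and 83.2% in pESC, 59.2% and 66.5% in E9.5 PGC, 41.7% and 48.1% in E12.5 PGC, 48.5% and 56.7% in ESC-PGCLC, and 66.2% and 70.0% in pESC-PGCLC. Both pESC libraries stood above all others, and the ESC libraries overlapped those of E12.5 PGC. In order of the mean, the groups ran from ESC (39.6% ± 7.31, SD, n = 2) through E12.5 PGC (44.9% ± 4.53), ESC-PGCLC (52.6% ± 5.82), E9.5 PGC (62.8% ± 5.12) and pESC-PGCLC (68.1% ± 2.71) to pESC (83.0% ± 0.244). ESC overlapped E12.5 PGC and E9.5 PGC overlapped pESC-PGCLC, and the other neighbours in this order did not overlap. Here and below, how many of all features separate groups in the same way was not counted.

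The Snrpn introns followed the same order of groups. Their level was 31.6% and 36.3% in ESC, 71.9% and 69.6% in pESC, 54.3% and 55.3% in E9.5 PGC, 37.3% and 38.7% in E12.5 PGC, 46.1% and 53.4% in ESC-PGCLC, and 59.6% and 59.7% in pESC-PGCLC. No pair of neighbouring groups overlapped in the introns. The Snrpn exons had 31.4% and 33.3% in ESC, 67.3% and 67.0% in pESC, 55.6% and 52.3% in E9.5 PGC, 33.3% and 35.1% in E12.5 PGC, 49.3% and 55.5% in ESC-PGCLC, and 60.3% and 56.4% in pESC-PGCLC. The values of the Snrpn 5' UTR equalled those of its exons in 12 of 12 libraries, so they are 1 measurement, though counts over the 11 parts below include both. The 4 Snrpn parts are not independent of each other. The promoter level lay above the exon level in 11 of 12 libraries, by 8.78 points on average over all 12 and by at most 16.2, while in ESC-PGCLC replicate 1 promoter minus exon was -0.787 points.

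Ndn was nearly unmethylated in both stem cells. Its exon level was 2.06% and 0.556% in ESC, 2.43% and 2.50% in pESC, 17.5% and 16.7% in E9.5 PGC, 11.9% and 14.6% in E12.5 PGC, 11.5% and 10.04% in ESC-PGCLC, and 15.3% and 11.7% in pESC-PGCLC. All 8 germ cell and PGCLC libraries stood above all 4 stem cell libraries. Both MspI sites of the gene lie in its CpG island at 62348254 to 62348744, and the level of that island equalled the exon level in 12 of 12 libraries.

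Magel2 showed different levels in its 5' UTR and over its exon as a whole. The exon level was 36.1% and 30.2% in ESC, 33.4% and 34.4% in pESC, 56.7% and 55.4% in E9.5 PGC, 34.8% and 37.0% in E12.5 PGC, 46.0% and 43.4% in ESC-PGCLC, and 40.0% and 40.1% in pESC-PGCLC. E9.5 PGC stood above all other libraries by 9.38 points or more. The 5' UTR level was 3.75% and 3.44% in ESC, 1.63% and 6.46% in pESC, 18.8% and 26.3% in E9.5 PGC, 16.3% and 18.7% in E12.5 PGC, 17.4% and 16.8% in ESC-PGCLC, and 10.2% and 18.3% in pESC-PGCLC. As at Ndn, the 4 stem cell libraries stood below the other 8, and the PGCLC and E12.5 PGC libraries overlapped. The exon lay above the 5' UTR by 27.4 points on average.

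Ube3a was nearly unmethylated in all 12 libraries. Over the 12 libraries its promoter ranged from 0.981% to 1.47%, its 5' UTR from 0.808% to 1.42%, its exons from 0.797% to 1.44% and its introns from 1.16% to 4.50%. In each of these 4 parts every pair of groups next to each other in order of level overlapped. In the 40 tests of Ube3a parts, the largest difference between groups was 1.26 points, none had an unadjusted limma p under 0.05 and the smallest adjusted p was 0.21. After each library was centred on its median log odds, the 40 differences ran from -3.12 to 3.23 points, 15 had an adjusted p under 0.05 (smallest 0.00121, the promoter of E12.5 PGC against E9.5 PGC with 1.78 points) and 13 had turned sign, but none reached the 10 points required of a call.

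**Figure D2:**
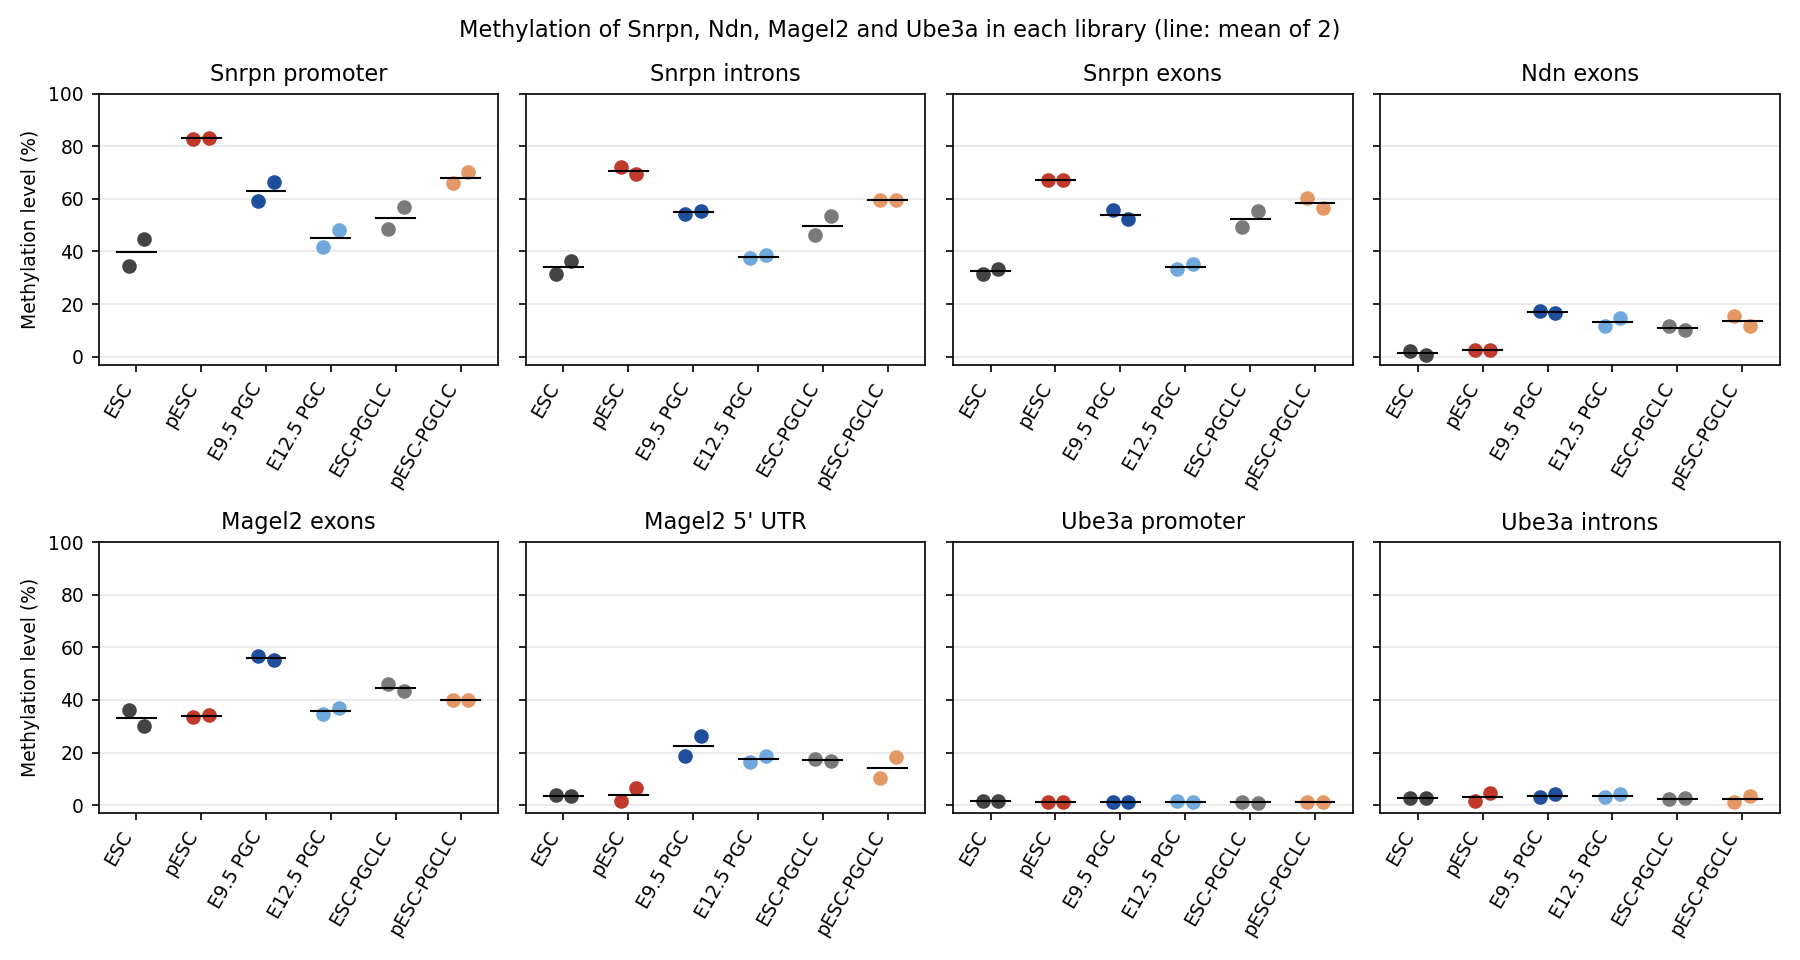
Methylation level in percent (vertical axis) in each of the 2 libraries (points) of each group, with the mean as a line, for 8 parts of the 4 genes. The pESC libraries are the highest at Snrpn, between 67.0% and 83.2%, whereas at Ndn and the Magel2 5' UTR both stem cells lie below the other groups and Ube3a stays under 5% throughout.

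CpG islands and their shores (the stretches beside an island) were deposited as features of their own, which the choice of genes did not use. An island was listed within 5 kb of Ndn, Magel2 and Ube3a, and none near Snrpn. The Magel2 island at 62377183 to 62377459 had 3.82% and 4.20% in ESC, 2.50% and 6.58% in pESC, 19.3% and 25.6% in E9.5 PGC, 14.3% and 18.7% in E12.5 PGC, 19.7% and 18.4% in ESC-PGCLC, and 12.7% and 16.2% in pESC-PGCLC. It lay within 2.47 points of the Magel2 5' UTR in every library. The shore that follows it, at 62377459 to 62379460, ranged from 36.6% in E12.5 PGC to 59.3% in E9.5 PGC, so that the shore was above its island in all 12 libraries. The Ube3a island at 59228600 to 59229618 ranged from 1.02% to 1.74%.

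**Figure D3:**
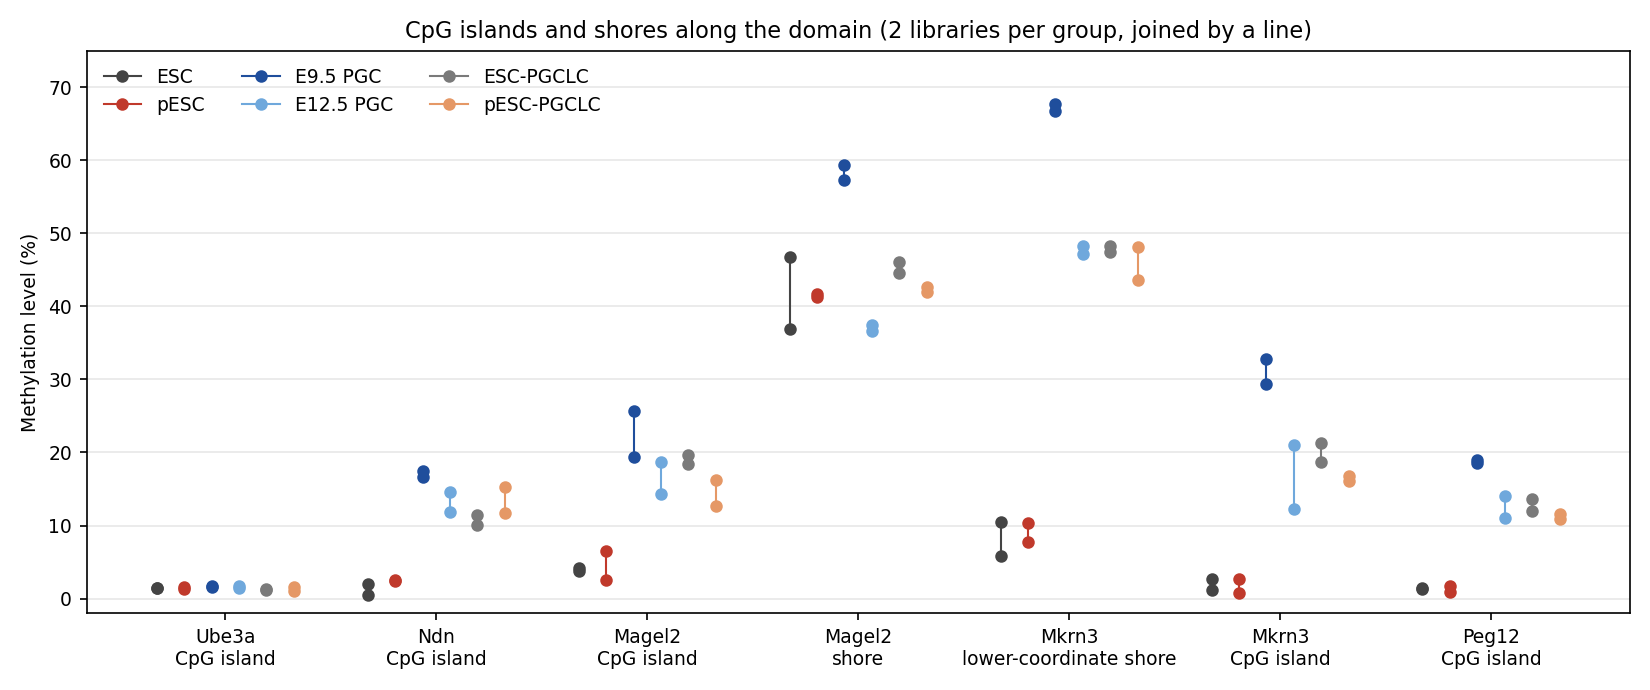
Methylation level in percent (vertical axis) of the CpG islands and shores listed at Ube3a, Ndn and Magel2 and at the neighbouring genes Mkrn3 and Peg12, with the 2 libraries of each group as joined points. The stem cell libraries lie below 11% at every island and at the Mkrn3 shore, while the Magel2 shore lies above 36% in all libraries and the Ube3a island below 2%.

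Differences were tested with limma on log odds over all features, with Benjamini-Hochberg adjustment over the whole table, and a feature was called if its adjusted p fell below 0.05 and the 2 group means were 10 or more percentage points apart. Since the groups differ in overall level, differences are also given after centring, that is, after subtraction of each library's median log odds. On the log2 odds scale the library medians of E12.5 PGC lay 1.09 below those of E9.5 PGC (a shift of -1.09). The corresponding shifts were 0.12 for pESC against ESC, -0.67 and -0.80 for ESC-PGCLC and pESC-PGCLC against E9.5 PGC, 0.42 and 0.29 for both against E12.5 PGC, -0.13 between the 2 PGCLC groups, and 1.18 and 0.93 for ESC-PGCLC and pESC-PGCLC against their own stem cells. Comparisons that use the same group share its libraries, so their results are not independent.

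The comparison of pESC with ESC asks how cells with maternal genome copies only differ from biparental ones. The Snrpn promoter mean was 43.4 points higher in pESC (log2 odds difference 2.82, limma adjusted p = 0.301), the introns 36.8 points (adjusted p = 0.567) and the exons 34.7 points (adjusted p = 0.617). None of the 11 gene parts was called, as none of 148012 features was (0%), while the Snrpn promoter, introns, exons and 5' UTR had an unadjusted p under 0.05, as 2054 features did. In simulated levels of this design, 0 of 200 features shifted by 2 log2 odds were called, and 121 of 200 shifted by 4. A missing call thus decides little for differences of this size. The fit of all 12 libraries takes its spread from all groups together, although the ESC libraries were the least alike, so it may understate the spread of ESC. In that fit the 4 Snrpn parts were called (promoter, limma adjusted p = 0.0064), where 0.0525% of all features were. Without pESC replicate 1 the promoter alone was, with adjusted p = 0.018, against 0.501% of all features. After centring, the Snrpn differences were 41.7, 34.9 and 32.9 points. Among 19766 promoters, 2 had a larger difference than Snrpn. Ndn differed by 1.16 points, the Magel2 exon by 0.711 and its 5' UTR by 0.457, each with an adjusted p of 1, and the Magel2 exon value turned to -1.02 after centring and to -2.27 without ESC replicate 2.

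**Figure D4:**
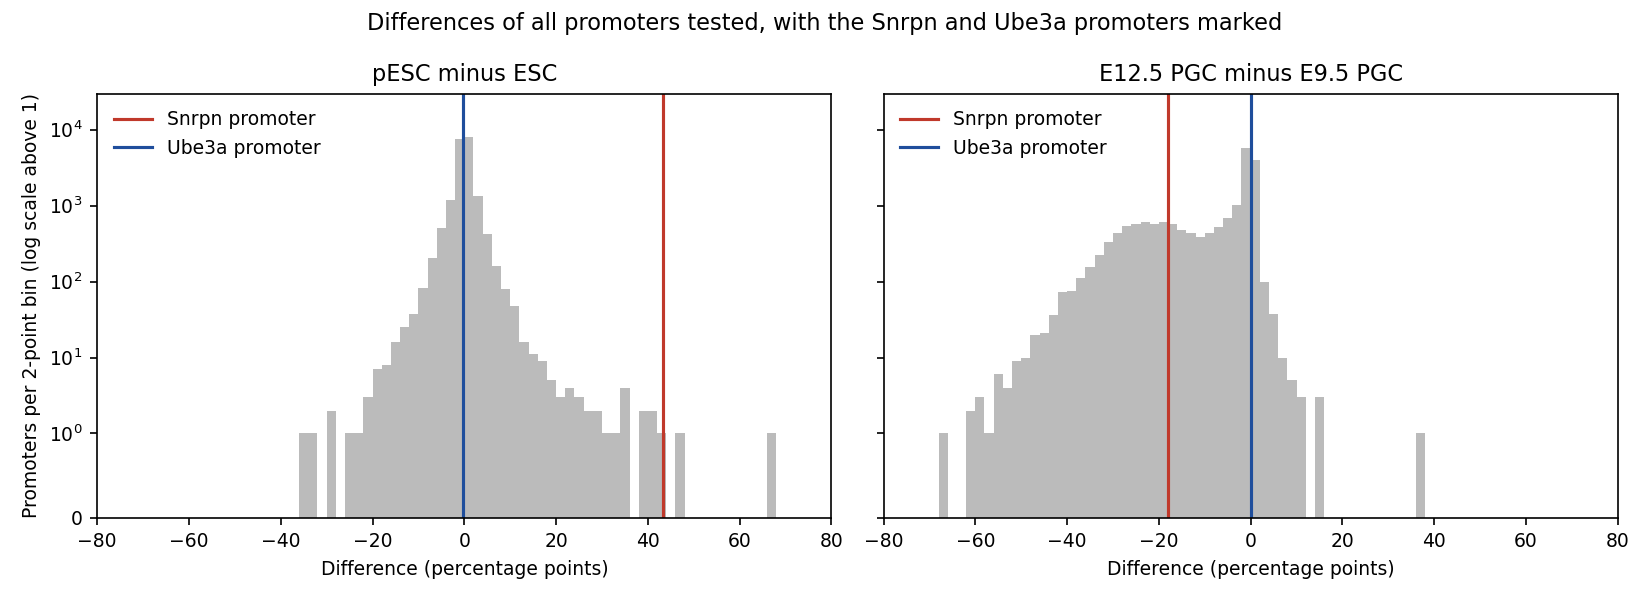
Number of promoters (vertical axis, log scale above 1) by difference of group means in percentage points (horizontal axis), for pESC minus ESC and for E12.5 PGC minus E9.5 PGC, with lines at the Snrpn and Ube3a promoters. In the left panel the Snrpn promoter lies at 43.4 points with 2 promoters beyond it, and in the right panel at -17.9 points, inside the broad group of promoters that were lower at E12.5, a direction that at Snrpn turned to 1.42 points after centring.

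Between E9.5 and E12.5, when germ cells lose methylation over much of the genome, 5 of the 11 gene parts were called, all lower at E12.5, against 49.6% of all 137202 features. The Snrpn exons and 5' UTR fell by 19.7 points (limma adjusted p = 0.00112), the introns fell by 16.8 (adjusted p = 0.00177), the promoter fell by 17.9 (adjusted p = 0.0103) and the Magel2 exon fell by 20.1 (adjusted p = 0.000193). The median over all features was -11.5 points. After centring none of the 5 was called, against 12.2% of all features: the Snrpn exons had -0.564 points, the Magel2 exon -0.793, and the Snrpn introns and promoter turned to 2.64 and 1.42. Ndn differed by -3.86 points (adjusted p = 0.105) and the Magel2 5' UTR by -5.10 (adjusted p = 0.34), and these turned to 6.33 and 7.39 after centring. The Snrpn promoter was not called without E9.5 PGC replicate 2 or without E12.5 PGC replicate 1 (highest adjusted p = 0.0614), and 4444 of 18794 promoters had a more negative difference.

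Against E9.5 PGC, the Magel2 exon was the 1 part called in either PGCLC group. It was lower by 11.3 points in ESC-PGCLC (difference -11.3, limma adjusted p = 0.00451) and by 15.9 in pESC-PGCLC (difference -15.9, adjusted p = 0.000843), where 29.8% and 40.3% of all features were called, and after centring the values were 0.285 and -1.87 points, neither called. The Snrpn promoter, introns and exons differed by -10.2, -5.04 and -1.54 points in ESC-PGCLC and by 5.24, 4.87 and 4.41 points in pESC-PGCLC, none of them called. After centring, the ESC-PGCLC promoter and introns turned to 1.10 and 6.59 points, and the exons to 10.1, which was called (adjusted p = 0.0483), where 6.87% of all features were. In pESC-PGCLC the exons, introns and promoter were called after centring (18.5, 18.9 and 18.7 points, highest adjusted p = 0.0183), where 9.96% of all features were. Ndn differed by -6.32 points in ESC-PGCLC, with adjusted p = 0.022 but less than 10 points. Without pESC-PGCLC replicate 2, the Magel2 5' UTR was also called lower in pESC-PGCLC, with -12.4 points.

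Against E12.5 PGC, the Snrpn exons, 5' UTR and introns were called higher in both PGCLC groups, and the promoter in pESC-PGCLC alone. None of these calls held after centring. In ESC-PGCLC the exons and 5' UTR were 18.2 points higher (limma adjusted p = 0.00577) and the introns 11.8 points (adjusted p = 0.0173), which made 3 called parts of 11 where 22.8% of all features were called (22.2% higher), while the promoter differed by 7.67 points (adjusted p = 0.224), a value that turned to -0.327 after centring. In pESC-PGCLC the exons and 5' UTR were 24.2 points higher (adjusted p = 0.0137), the introns 21.7 (adjusted p = 0.0145) and the promoter 23.1 (adjusted p = 0.026), which made 4 of 11 where 7.1% were called (6.81% higher). These 4 calls in pESC-PGCLC were lost when any 1 of the 4 libraries compared was left out (adjusted p between 0.053 and 0.107) and after centring, where the exon, intron and promoter differences were 19.0, 16.2 and 17.3 points and 0.872% of all features were called. The promoter call was also lost in the fit of all 12 libraries (adjusted p = 0.0736). In ESC-PGCLC the exon call held without any 1 library and was lost after centring (10.6 points, adjusted p = 0.0641), and the intron call was lost without either E12.5 PGC library, without ESC-PGCLC replicate 2 (highest adjusted p = 0.079, lowest difference 8.09 points), in the fit of all 12 libraries (adjusted p = 0.05) and after centring (3.95 points). The Magel2 exon differed by 8.77 points in ESC-PGCLC (adjusted p = 0.0136), under the 10 points required.

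The 2 PGCLC groups were compared directly. The Snrpn promoter mean was 15.5 points higher in pESC-PGCLC (limma adjusted p = 0.158), the introns 9.91 and the exons 5.96 points, with 17.6, 12.3 and 8.38 points after centring. The Magel2 exon mean was lower in pESC-PGCLC (-4.60 points, adjusted p = 0.25, and -2.16 after centring). None of the 11 parts was called, against 0.0948% of all features. The Snrpn promoter, the Snrpn introns and the Magel2 exon had an unadjusted p under 0.05, as 26558 of 137202 features did. The libraries of the 2 groups did not overlap at the promoter, the introns or the exons of Snrpn, nor at the Magel2 exon. With 2 libraries per group such separation is weak evidence, and its share over all features was not counted.

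On induction from ESC, methylation was called higher at the Snrpn exons, 5' UTR and introns and at the Magel2 5' UTR, but at none of them after centring. The Snrpn exons and 5' UTR rose by 20.0 points (limma adjusted p = 0.0088), the introns by 15.8 (adjusted p = 0.0307) and the Magel2 5' UTR by 13.5 (adjusted p = 0.0245), which made 4 called parts of 11, all higher, against 14.6% of all features (13.7% higher). The Snrpn promoter differed by 12.96 points (adjusted p = 0.125), the Magel2 exon by 11.5 (adjusted p = 0.0669) and Ndn by 9.46 (adjusted p = 0.00203, under 10 points). The Magel2 exon was called with the larger offset of 0.1 (adjusted p = 0.0239), with untransformed levels (adjusted p = 0.023) and in the fit of all 12 libraries (adjusted p = 0.0178), where 14.8%, 13.8% and 18.3% of all features were. After centring none was called, against 32.2% of all features. The Snrpn exons had 0.138 points and the Magel2 5' UTR 6.09 after centring. The Snrpn introns, Snrpn promoter and Magel2 exon turned to -4.08, -7.29 and -8.00 points. The median over all features turned as well, from 1.26 to -3.23 points, so centred values hold a shift downwards that is not particular to these genes. The Snrpn exon and 5' UTR calls were lost without ESC-PGCLC replicate 2 (adjusted p = 0.091) and the intron call without either ESC-PGCLC library or ESC replicate 1 (highest adjusted p = 0.23). The Magel2 5' UTR call was lost without any 1 of the 4 libraries (adjusted p from 0.0625 to 0.104). Without ESC replicate 1, the Magel2 exon (14.5 points) and Ndn were called, without ESC-PGCLC replicate 2 Ndn was called (at most 10.2 points), and without ESC replicate 2 the Snrpn promoter was (18.1 points).

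On induction from pESC, the Snrpn promoter fell by 14.9 points (limma adjusted p = 0.0382) while the Ndn exon rose by 11.1 (adjusted p = 0.00525), which made 2 called parts of 11, against 9.66% of all features (8.91% higher and 0.746% lower). The Snrpn introns and exons differed by -11.1 (adjusted p = 0.114) and -8.78 points (adjusted p = 0.199), and the Magel2 5' UTR by 10.2 points (adjusted p = 0.0574). The Snrpn promoter was not called without any 1 of the 4 libraries (adjusted p from 0.134 to 0.237), with untransformed levels (adjusted p = 0.113) or with the larger offset of 0.1 (adjusted p = 0.0515). The Ndn call was lost without pESC-PGCLC replicate 1 (9.27 points) and after centring (6.28 points). After centring the Snrpn promoter, introns and exons were all called, with -26.6, -25.4 and -23.6 points, where 29.2% of all features were. The Magel2 exon turned from 6.21 to -8.94 points on centring. The median over all features turned as well, from 0.566 to -2.86 points, so part of the larger falls is shared by features in general. In the fit of all 12 libraries the introns and the Magel2 5' UTR were also called, against 12.3% of all features. The Magel2 5' UTR was called as well without pESC replicate 2 (adjusted p = 0.0117) and among gene parts alone (adjusted p = 0.0446), where 7.21% and 10.3% of features were, and leaving out 1 library at a time gave it values between 6.18 and 14.2 points.

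Whether induction acted differently on the 2 origins was tested as an interaction. At the Snrpn promoter the level differed by 12.96 points on induction from ESC (-7.29 after centring) and by -14.9 from pESC, an interaction of -27.9 points (95% interval of the log2 odds difference -2.83 to -0.97, limma adjusted p = 0.836). The exons and 5' UTR had -28.8 points (adjusted p = 0.548) and the introns -26.9 (adjusted p = 0.757). None of the 11 parts was called, against 0.0365% of all features. These 4 had an unadjusted p under 0.05, as 4053 of 136848 features did. In simulated levels of this design, 0 of 200 features shifted by 2 log2 odds were called, so a missing call decides little at this size. At all 4 Snrpn parts, both ESC-PGCLC libraries lay above both ESC libraries and both pESC-PGCLC libraries below both pESC libraries. The share of all features with this pattern was not counted. After centring, the interactions were -19.3, -23.7 and -21.3 points. At Ndn the interaction was 1.61 points (log2 odds interval -1.48 to 0.79) and at the Magel2 5' UTR -3.31 (interval -2.01 to 1.40), each with an adjusted p of 1.

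**Figure D5:**
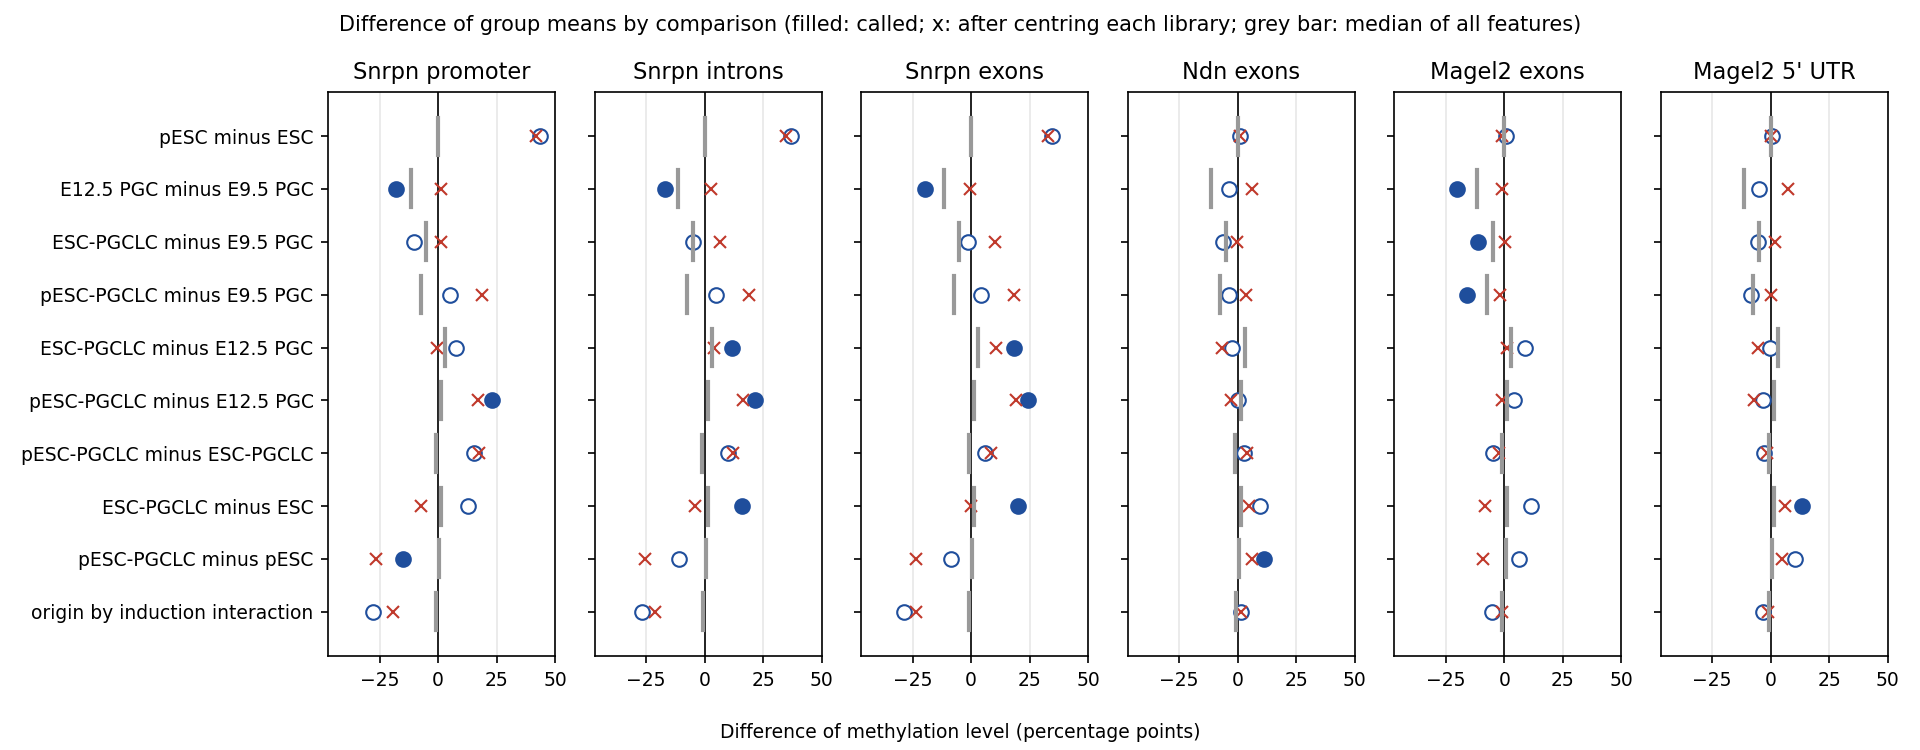
Difference of group means in percentage points (horizontal axis) for 6 parts of Snrpn, Ndn and Magel2 in each comparison (rows), with called differences filled, the values after centring each library as crosses and the median of all features as grey bars. At Snrpn, pESC minus ESC and the interaction keep their sign after centring, while the E12.5 minus E9.5 values of -17.9 and -16.8 points at its promoter and introns turn to 1.42 and 2.64.

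Other genes of the same domain were taken from a list of 15, of which 14 had a level in at least 1 gene part and 43 gene parts were tested in the PGC and PGCLC comparisons. Between E9.5 and E12.5 PGC, 12 of these 43 parts in 8 genes were called, all lower, against 49.6% of all features and 43.6% of gene parts. The median over the list was -0.476 points, against -11.5 over all features and -6.08 over gene parts. It was -1.49 over all promoters and -0.135 over all 5' UTRs, so the mix of parts in the list bears on its median. After centring 1 was called lower and 1 higher, against 12.2% of all features, with a median of 2.04. On induction from ESC, 7 were called higher and 1 lower, against 14.6% of all features, and after centring 2 and 6, against 32.2%. On induction from pESC, 3 were called higher and 3 lower, against 9.66% of all features, and after centring 2 and 11, against 29.2%. Snurf, whose transcript begins beside the inner start of Snrpn, gave a promoter difference of -18.6 points from E9.5 to E12.5 (limma adjusted p = 0.0026), which turned to 0.843 after centring. Its exon difference was 26.7 points on induction from ESC (adjusted p = 0.00243) and -12.1 from pESC (adjusted p = 0.0389), with 6.66 and -24.6 after centring. Mkrn3, a paternally expressed ubiquitin ligase beside Magel2, rose in its exon by 30.4 points on induction from ESC (adjusted p = 0.00025) and by 26.5 from pESC (adjusted p = 0.000537), with 18.8 and 17.7 points after centring, both called. Its shore at 62417675 to 62419675 had 10.5% and 5.81% in ESC, 10.3% and 7.76% in pESC, 67.7% and 66.7% in E9.5 PGC, 47.1% and 48.3% in E12.5 PGC, 48.3% and 47.5% in ESC-PGCLC, and 48.1% and 43.6% in pESC-PGCLC. The island of Peg12, a paternally expressed retrogene further along, had 0.875% to 1.68% in the stem cells and 10.9% to 18.9% in the other 8 libraries. The stem cell libraries were thus lowest at Ndn, at the Magel2 island, at the Mkrn3 shore and at the Peg12 island, whereas at Snrpn the pESC libraries were highest.

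The Snrpn promoter was set beside promoters of 21 other genes known to carry a maternal germline imprint. The shares of all promoters or all features given beside the list count calls in either direction. After centring they cover features of every class, so they are not a matched share for promoters called in 1 direction. In pESC minus ESC, its 43.4 points exceeded all 16 tested promoters of the list, whose median was 14.7 points and whose largest value was 39.4, and the same held after centring (41.7 points against at most 38.1). On induction from ESC, 13 of 15 listed promoters were called higher, against 12.9% of all promoters called. The median of the 15 was 27.0 points, and 2 of them had a smaller difference than the 12.96 points of Snrpn. After centring 8 of the 15 were called higher, against 32.2% of all features called, and their median was 15.4 points, against -7.29 at Snrpn. On induction from pESC, 4 of 15 were called higher and none lower, against 9.23% of all promoters called. The median was 5.81 points (-8.18 after centring) and the lowest value -8.07, against -14.9 at Snrpn. After centring 3 were called higher and 6 lower, where 29.2% of all features were called, and the lowest value was -23.9, against -26.6 at Snrpn. From E9.5 to E12.5, 14 of 15 were called lower, where 32.2% of all promoters were called, with a median of -21.8 points against -17.9 at Snrpn. None was called after centring, where 12.2% of all features were, and the median was -2.53 against 1.42 at Snrpn. Against E9.5 PGC, 14 of 15 were called lower in pESC-PGCLC, where 27.4% of all promoters were called, with a median of -13.8 points against 5.24 at Snrpn. After centring none was called, where 9.96% of all features were, with values up to 7.04 against 18.7 at Snrpn. In the interaction of origin and induction, all 15 listed promoters were below 0, with a median of -12.0 points and a lowest value of -34.9. Of these, 4 were called lower, where 0.0372% of all promoters were called, and 3 were more negative than the -27.9 points of Snrpn. After centring the list ran from -40.2 to 3.38 points, so not all stayed below 0. Its median was then -10.5, against -19.3 at Snrpn, and 2 were called lower, where 0.0278% of all features were called. These are descriptions of where 1 promoter lies in a list chosen with earlier results known, and no test of the difference was made.

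The promoters with levels most like those of the Snrpn promoter over the 12 libraries were found by the mean absolute difference among 18455 other promoters. The gene model Gm38393 (chromosome 7, 59974149 to 60005064, minus strand) and Snurf (59995449 to 60005049), which both overlap Snrpn and begin near its inner start, came first with 3.77 points each. Gm27568 on chromosome 6 (30735964 to 30736062) followed with 9.59 points, then Gm7482 with 9.94 and Gm13393 with 10.2. The mean of Gm27568 was 9.26% in ESC and 76.1% in pESC, further apart than at the Snrpn promoter. Gm27568 was not among the tested promoters of the list of maternal imprints above.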

How the data were processed

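The authors deposited 1 table of methylation levels per library, in which each annotated feature has a fraction between 0 and 1, printed here as a percentage. Per the study's methods the authors aligned RRBS reads with Bismark and corrected for non-conversion, and the submitters' processing notes name Bismark 0.16.3, Bowtie2 and mm10. The coverage minimum and the promoter definition are not given in the sources used here. No read counts were used, so no interval or floor for counting error could be given.

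Groups came from the sample titles. The members and gene lists were chosen with earlier results of these data known. Every gene part of the 4 genes was named. Of 30073 gene identifiers, 30041 matched GENCODE M21. Levels were transformed as log2((level + 0.01) / (1 - level + 0.01)) and fitted with limma 3.58.1 (lmFit, contrasts.fit, eBayes, two-sided) in R 4.3.3 over every feature with a level in all libraries of a fit. The pESC and ESC comparison used their 4 libraries, the PGC and PGCLC comparisons 8, and the induction comparisons and their interaction 8. P-values were adjusted by Benjamini-Hochberg over all features tested. The step was checked on simulated levels. Alternatives were an offset of 0.1, untransformed levels, 1 fit of all 12 libraries, a replicate block, gene parts only, features with missing levels, centring, the adjusted p alone and leaving out each library. CpG and MspI sites were counted in GRCm38 with Python 3.11.15 and pandas 2.3.3, and upstream sequences are from RefSeq (GRCm38.p6), matched by symbol for 4 of 4 genes. Plots were drawn with matplotlib 3.10.9.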

Additional observations from a re-analysis of the deposited data

Results flagged for a closer look

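Snrpn levels on PGCLC induction moved in opposite directions in the 2 origins. They were higher in both ESC-PGCLC libraries than in both ESC libraries, and lower in both pESC-PGCLC libraries than in both pESC libraries. After centring the difference from ESC was 0.138 points at the exons, -4.08 at the introns and -7.29 at the promoter. The directions were then no longer opposite at the introns and promoter. The median difference from ESC over all features turned too, from 1.26 to -3.23 points. The difference of the 2 changes was -28.79 points at the Snrpn exons and, with the same values, at its 5' UTR, -26.904 at its introns and -27.893 at its promoter. It was tested as an interaction in limma, whose adjusted p was 0.548, 0.757 and 0.836 in that order, so none passed the threshold over all features, and 50 of 136848 features did. Leaving out each of the 8 libraries in turn gave between -31.9 and -25.7 points at the exons, between -30.6 and -23.2 at the introns and between -33.1 and -22.7 at the promoter. The overall level of the libraries also differed between these groups, from 23.6% in ESC and pESC to 29.5% in ESC-PGCLC and 27.4% in pESC-PGCLC, and after centring each library the 3 interactions were -23.7, -21.3 and -19.3 points. Before centring, the interaction was also below 0 at all 15 tested promoters of the list of genes with a maternal germline imprint. Of these, 3 were more negative than the Snrpn promoter. Their median was -12.0 points, and 4 were called lower, where 0.0372% of all promoters were called in either direction. After centring the list ran from -40.2 to 3.38 points with a median of -10.5. Then 2 were called lower, where 0.0278% of all features were called.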

How the results depend on the processing

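The number of called parts (of 11) moved by over 1.5 times as follows. For pESC against ESC it was 4 in the fit of all 12 libraries and 0 to 1 when single libraries were left out. After centring each library on its median it was 0 for E12.5 PGC against E9.5 PGC, for ESC-PGCLC and for pESC-PGCLC against E12.5 PGC and for ESC-PGCLC against ESC, 2 for ESC-PGCLC and 4 for pESC-PGCLC against E9.5 PGC, and 4 for pESC-PGCLC against pESC. By the adjusted p alone it was 2 for ESC-PGCLC against E9.5 PGC. For pESC-PGCLC against pESC it was 1 with the offset of 0.1, 1 with untransformed levels and 4 with all 12 libraries. Leaving out single libraries gave 1 to 2 for pESC-PGCLC against E9.5 PGC, 0 to 0 for pESC-PGCLC against E12.5 PGC, 1 to 4 for ESC-PGCLC against ESC and 0 to 2 for pESC-PGCLC against pESC. The fits that leave out a library assume that the lone library of a group varies like the others. The cause of these moves was not tested.

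At Snrpn, Ndn and Magel2, the differences that turned sign after centring were, for E12.5 PGC against E9.5 PGC, the Snrpn introns (2.642 points), the Snrpn promoter (1.422), Ndn (6.33) and the Magel2 5' UTR (7.388). For ESC-PGCLC against E9.5 PGC they were the Snrpn exons and 5' UTR (10.068), introns (6.587) and promoter (1.096) and the Magel2 exon (0.285) and 5' UTR (1.735), and for pESC-PGCLC Ndn (3.572) and the Magel2 5' UTR (0.228). Against E12.5 PGC they were the Snrpn promoter in ESC-PGCLC (-0.327) and, in pESC-PGCLC, Ndn (-2.758) and the Magel2 exon (-1.079). On induction from ESC they were the Snrpn introns (-4.077) and promoter (-7.294) and the Magel2 exon (-7.995), on induction from pESC the Magel2 exon (-8.938), and in pESC against ESC the Magel2 exon (-1.015). At Ube3a 13 of 40 turned sign, all 40 lying between -3.12 and 3.23 points.

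Leaving out 1 library also turned the sign of some differences at these 3 genes, none called in either fit. In pESC against ESC the Magel2 exon ranged from -2.274 to 3.695 points and its 5' UTR from -1.958 to 2.871. In ESC-PGCLC against E9.5 PGC the Snrpn exons ranged from -4.671 to 1.587, with 0.135 without E9.5 PGC replicate 1. Against E12.5 PGC the Magel2 5' UTR ranged from -1.544 to 0.791 in ESC-PGCLC and from -7.257 to 0.791 in pESC-PGCLC, and Ndn from -1.486 to 2.091 in pESC-PGCLC. Between PGCLCs the Magel2 5' UTR ranged from -6.881 to 1.167. The interaction ranged from -0.181 to 3.395 at Ndn and from -7.337 to 0.71 at the Magel2 5' UTR.

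Replicate numbers come from the titles, which say nothing of a shared batch. Deviations of same-numbered libraries from their group means correlated at 0.518 between ESC and pESC, at 0.183 between E9.5 PGC and ESC-PGCLC and between -0.06 and 0.08 for the other 13 pairs of groups. The main fits did not take the numbers as a pairing, although same-numbered ESC and pESC libraries deviated alike. For pESC against ESC, a block for the replicate number gave limma adjusted p = 0.151 at the Snrpn promoter, with 0 of 148012 features called. A fit with a block for the replicate number gave 2 called parts in place of 1 for ESC-PGCLC against E9.5 PGC, where the Snrpn promoter passed (adjusted p = 0.0109), and the Magel2 5' UTR passed on induction from pESC (adjusted p = 0.0372).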
